A study of Mus musculus with 22 samples.

Results

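The nuclear genes for mitochondrial ribosomal proteins were followed in bulk RNA sequencing of mouse CD8+ T cells. Members were all genes listed in the deposited normalized data with a symbol that starts with Mrpl or Mrps and a number. Their mean raw count over the 22 libraries had to be at least 10. Those data list 21674 of the 46603 counted genes. The rule found 78 members, 49 of them named for the large subunit (Mrpl) and 29 for the small subunit (Mrps). None of the 5 named pseudogenes, such as Mrpl23-ps1, is a member. Mean counts ran from 159.4 for Mrps36 and 238.5 for Mrpl23 to 9894.2 for Mrpl24, so no listed gene of these names lay below the limit. All 78 members passed the filter on low counts and were among the 21183 genes tested.

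The mitochondrial ribosome translates the few mRNAs of the mitochondrial genome, which encode core subunits of the respiratory chain. Its proteins are encoded in the nucleus, made in the cytosol and imported, and they assemble with mitochondrially encoded rRNAs into a large subunit, which forms peptide bonds, and a small subunit, which binds the mRNA and decodes it. Some of these proteins descend from bacterial ribosomal proteins and others were added in the mitochondrial lineage. Naive T cells are quiescent, and T cells that receive an antigen receptor signal with costimulation enlarge, make more mitochondria and begin to divide.

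All mice carried Cd4Cre, a Cre recombinase driven by the Cd4 promoter, which is active from the thymocyte stage and so acts in CD4 and CD8 T cells alike. KI mice came from the line Tcaim KI Cd4Cre with the genotype code hocre, and carry a conditional knock-in of Tcaim. The wt mice came from the same line with the code wtcre. The libraries labelled KO came from the line Tcaim KO Cd4Cre, also hocre, and no wt mice of that line were analysed here. There were 3 wt, 3 KI and 2 KO-labelled mice, in experiments numbered 1, 3 and 5 (KO 1 and 5). Each mouse gave naive cells, taken from its spleen and lymph nodes and left untouched while magnetic beads removed the rest, and cells stimulated through CD3 and CD28 for 48 h, and wt and KI mice also gave cells stimulated for 24 h. In experiments 1 and 3 the wt and KI mice were male and in experiment 5 female, and both KO-labelled mice were female. Ages are not given in the sources used here. The question put by the series title is how Tcaim bears on anabolism and effector differentiation after activation.

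Library totals ran from 62551905 to 93489115 counts. Levels are given as CPM, counts scaled to a common library total with TMM factors, which are shares of the measured mRNA and not amounts per cell. Summed CPM of cell type markers and of mitochondrially encoded mRNAs were scaled to the raw library total instead, without TMM factors. A gene is called changed where the adjusted p-value of the edgeR quasi-likelihood test over all 21183 genes was under 0.05. Tcaim stood at 14.8 ± 0.309 CPM in naive wt cells (SD, n = 3), 141 ± 3.28 in naive KI cells and 17.2 ± 3.32 in naive cells labelled KO (n = 2), so the counts over this gene did not separate KO-labelled from wt libraries. Summed CPM of 7 CD8 T cell markers ranged from 2891 to 6109. The naive library labelled KO of experiment 1 stood apart, with 1256 CPM of B cell markers against 133 to 429 in the other naive libraries and 283 CPM of CD4 T cell markers against 38.3 to 91.6. Its 48 h partner also stood apart in CD4 markers, with 188 CPM against 30.3 to 72.4 in other 48 h libraries, and the main results for KO-labelled cells are given with and without it.

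Many members start close to another gene on the opposite strand. Whether such pairs share a promoter was not tested. In the GENCODE annotation of GRCm38, 33 of the 78 members (42.3%) have a protein-coding gene on the opposite strand whose start lies within 1000 bases of their own, against 10.9% of 21951 protein-coding genes. One such pair joins both subunits: Mrpl46 and Mrps11 on chromosome 7, whose distance between starts is -412 bases, the minus sign meaning that they overlap. Another pairs Mrps12, a decoding-centre protein, with Sars2, the mitochondrial seryl-tRNA synthetase, at 172 bases. Promoter windows from RefSeq (build GRCm38.p6), from 250 bases before to 50 bases after a transcript start, were found for 69 members (75 windows). Each window was searched on both strands for exact matches, which may overlap, to GCGCATGCG (the NRF1 motif), CCGGAAGT (ETS, the motif of GABP), AAGATGGCG (YY1), CACGTG (E-box), TGACGTCA (CRE) and CCAAT.

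The motif of each of the 3 factors long associated with nuclear genes for mitochondrial proteins was found in more member windows than in windows of all genes. NRF1 matched 9.33% of member windows and 1.75% of all 32851 windows, ETS 16% and 3.89%, and YY1 10.7% and 1.4%. At least one of these 3 was in 34.7% of member windows and in 6.69% of all windows. By subunit, NRF1 matched 6 of 48 large windows (12.5%) and 1 of 27 small windows (3.7%). ETS matched 8 (16.7%) and 4 (14.8%), and YY1 4 (8.33%) and 4 (14.8%). Differences between the subunits in these small counts were not tested. The E-box was in 9.33% against 7.15% of windows, CRE in 2.67% against 1.79% and CCAAT in 40.0% against 37.4%. Overlapping windows of one gene count repeatedly here, and 3 of the 7 member windows with an E-box are of Mrpl2. Counted by gene, the E-box was in 7.25% of 69 member genes and 8.09% of 27025 genes and CCAAT in 39.1% and 41.1%, so the direction turned for both. By gene NRF1 was in 10.1% and 1.95%, ETS in 17.4% and 4.31%, and YY1 in 11.6% and 1.64%. Of the 8 YY1 matches in member windows, 6 lay on the sense strand just after the start, at offsets from 11 (Mrps18a) to 36 (Mrps24) bases. Over all windows, 43.4% of 477 YY1 matches lay so. A match describes letters in a window and is not evidence of binding.

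The windows of the members with the highest and the lowest response to 48 h of stimulation in each subunit are shown first, and then Mrps22 and Mrps27, the next highest of the small subunit, chosen after their values were seen because they hold matches. Capitals mark motif matches: CCAAT and then ETS in Mrps26, ETS in Mrps22, and ETS and then YY1 in Mrps27, some on the reverse strand. All run 5′ to 3′ on the strand of the gene.
Mrpl1, highest of the large subunit, chr5:96209865-96210164, plus strand: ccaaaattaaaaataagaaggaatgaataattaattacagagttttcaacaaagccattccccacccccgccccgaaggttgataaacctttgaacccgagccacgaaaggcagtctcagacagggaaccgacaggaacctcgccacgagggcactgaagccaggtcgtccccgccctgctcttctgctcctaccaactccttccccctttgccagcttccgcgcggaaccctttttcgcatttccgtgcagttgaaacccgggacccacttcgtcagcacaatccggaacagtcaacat
Mrpl24, lowest of the large subunit, chr3:87919294-87919593, plus strand: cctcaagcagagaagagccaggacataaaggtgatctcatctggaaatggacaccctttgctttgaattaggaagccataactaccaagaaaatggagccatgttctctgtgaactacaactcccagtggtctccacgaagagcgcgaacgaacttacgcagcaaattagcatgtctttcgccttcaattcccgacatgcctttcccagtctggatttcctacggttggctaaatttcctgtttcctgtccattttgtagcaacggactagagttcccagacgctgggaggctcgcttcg
Mrps6, highest of the small subunit, chr16:92058086-92058385, plus strand: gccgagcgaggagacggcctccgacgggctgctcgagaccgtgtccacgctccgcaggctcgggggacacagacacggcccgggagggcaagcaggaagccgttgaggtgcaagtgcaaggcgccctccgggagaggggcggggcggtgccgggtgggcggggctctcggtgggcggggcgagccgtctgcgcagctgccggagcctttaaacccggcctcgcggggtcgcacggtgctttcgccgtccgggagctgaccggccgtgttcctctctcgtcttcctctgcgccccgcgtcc
Mrps26, lowest of the small subunit, chr2:130563507-130563806, plus strand: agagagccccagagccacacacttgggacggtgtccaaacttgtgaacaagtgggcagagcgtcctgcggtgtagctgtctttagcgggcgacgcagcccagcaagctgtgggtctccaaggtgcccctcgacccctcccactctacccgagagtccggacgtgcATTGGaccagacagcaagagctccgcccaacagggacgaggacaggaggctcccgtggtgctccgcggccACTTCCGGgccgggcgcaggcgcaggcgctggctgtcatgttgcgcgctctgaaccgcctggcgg
Mrps22, chr9:98601630-98601929, minus strand: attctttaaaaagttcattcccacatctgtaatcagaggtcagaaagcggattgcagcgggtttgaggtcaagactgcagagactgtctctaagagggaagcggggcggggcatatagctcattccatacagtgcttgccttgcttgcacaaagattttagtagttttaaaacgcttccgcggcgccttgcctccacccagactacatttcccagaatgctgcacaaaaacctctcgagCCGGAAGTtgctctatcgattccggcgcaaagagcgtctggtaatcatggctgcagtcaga
Mrps27, chr13:99344536-99344835, plus strand: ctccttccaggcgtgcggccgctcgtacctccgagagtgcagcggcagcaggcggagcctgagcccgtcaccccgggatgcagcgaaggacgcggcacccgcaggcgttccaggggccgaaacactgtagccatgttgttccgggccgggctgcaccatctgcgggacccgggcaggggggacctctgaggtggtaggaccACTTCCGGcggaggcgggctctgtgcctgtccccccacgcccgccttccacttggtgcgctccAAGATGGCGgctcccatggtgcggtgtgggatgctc
None of the 6 motifs is in the windows of Mrpl1, Mrps6 or Mrpl24, and ETS is in those of Mrps22 and Mrps27, which rose, and of Mrps26, which did not. The Mrpl1 window, placed by a RefSeq start, lies downstream of the gene start given below for Mrpl1 and does not cover it. The windows shown were picked by response and, in part, by their matches, so they show no relation of motif to response, which was not tested.

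In naive wt cells the members spanned a wide range of levels. The deposited FPKM divide by 1 length per gene, and ranks between genes depend on that length. On this scale Mrpl24, a large subunit protein with a bacterial counterpart, was highest at 83.2 ± 4.84 (SD, n = 3). Next came Mrps16, a bacterial-type protein of the small subunit, at 70.4 ± 12.6. Mrpl42 and Mrps23, which have no bacterial counterpart, followed in their subunits at 40.5 ± 8.63 and 37.6 ± 4.7. The lowest of the small subunit were Mrps36 at 1.19 ± 0.379 and Mrps10 at 2.21 ± 0.182, and those of the large subunit Mrpl23 at 2.17 ± 0.462 and Mrpl1 at 3.77 ± 0.689. Mrpl23 and Mrps10 did not differ beyond their spread on this scale. In CPM, which does not divide by length, Mrps16 was at 33.5 ± 6.29 and Mrps10 at 15 ± 1.21 in naive wt cells. Whether the lengths used match the transcripts present in these cells was not tested.

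The products of these genes are found in a fixed ratio in the ribosome, but the FPKM of their mRNAs were not at one level. The part of the length assigned to each gene in this spread was not tested. The SD of log2 FPKM across the 78 members was 1.11 to 1.18 in the naive wt libraries and 1.13 to 1.32 in the wt 48 h libraries. The order of members was largely kept through activation, with r = 0.877 across the 78 members between mean log2 FPKM in naive and in 48 h wt cells. This is a description over genes measured in the same libraries. The naive level said little about the response: r was -0.14 between naive log2 FPKM and the log2 fold change at 48 h.

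Low values of some members are uncertain because near-identical copies exist. Mrps36, Mrpl23 and Mrps33 have annotated copies with more counts than the gene: the pseudogene Mrpl23-ps1 had a mean count of 2002.5 against 238.5, the copies of Mrps36 1219 against 159.4, and that of Mrps33 1190.3 against 605.5. In all, 17 members have a transcript that matches another annotated transcript over at least 200 bases at 95% identity or more. Mrpl48, Mrpl42 and Mrps5 have copies with counts of the same order as their own. For Mrps26 the match is a stretch shared with 10 unrelated transcripts. A further limit is that 33 members have an exon over an exon of another gene, 28 of them on the opposite strand, and whether counting used strand is not given in the sources used here.

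Stimulation raised most members by 24 h. In wt cells 69 of 78 rose and 0 fell at 24 h against naive, where 26.3% of all genes tested were called higher and 22% lower. The median log2 fold change of the members was 0.93, against -0.05 over all genes. The large subunit had 44 of 49 members called higher with a median of 1.01, and the small subunit 25 of 29 with a median of 0.83. In each mouse most members were above its own naive level, 76 of 78 in experiments 1 and 3 and 73 in experiment 5, with medians of 0.97, 1.16 and 0.65.

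At 48 h in wt cells 66 members were higher and 1 lower than in naive cells, where 29.5% of all genes were called higher and 26.8% lower. The median was 0.97 on the log2 scale, 1.06 in the large subunit (43 higher, 1 lower of 49) and 0.85 in the small subunit (23 higher of 29). Of the 66, 37 were at least 2-fold higher, and the share of all genes called at that size is not given here. The summed level of the 78 members was 2276 ± 222 CPM in naive wt cells, 4137 ± 295 after 24 h and 4154 ± 602 after 48 h (SD, n = 3). Naive wt libraries lay between 2056 and 2500 and the stimulated wt libraries between 3499 and 4683, with no overlap.

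**Figure D1:**
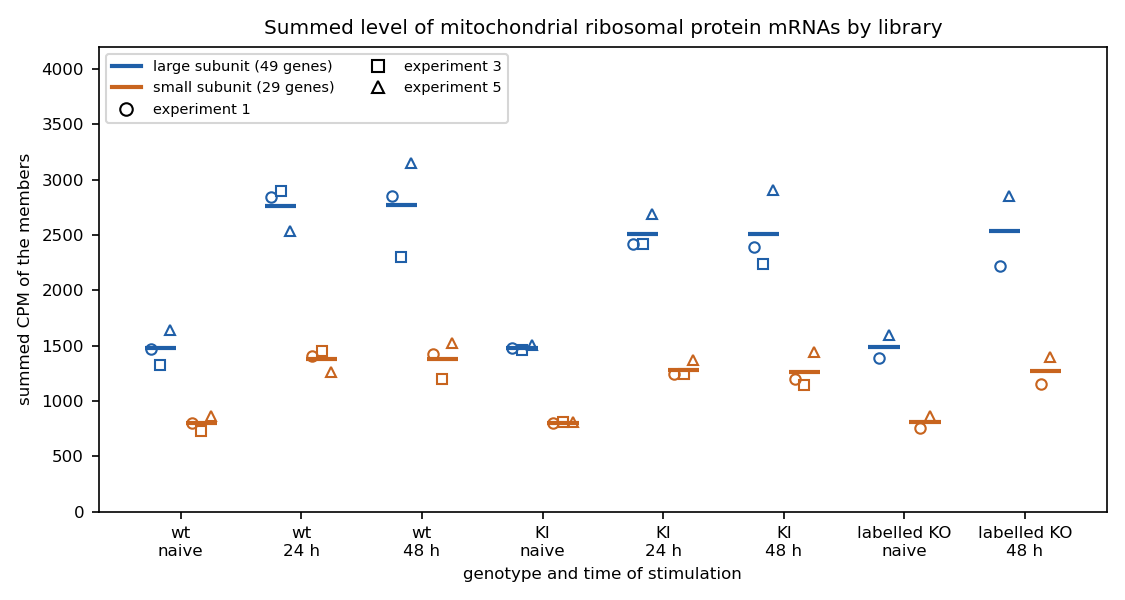
Summed CPM of the 49 large (blue) and 29 small subunit members (orange) in each of the 22 libraries by genotype and time; symbols give the experiment and bars the group mean. Every stimulated library lies above every naive library in both subunits, for example 2217 to 3155 against 1327 to 1638 CPM in the large subunit.

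Most markers of other cells fell over the same time. In wt cells at 48 h, 4 of 5 B cell, 6 of 6 myeloid, 3 of 3 dendritic, 2 of 3 NK and both tested erythroid markers were called lower, as were 6 of 7 CD8 T cell markers. Summed B cell markers went from 264 to 429 CPM in naive wt libraries to 44.6 to 132 at 48 h. Myeloid markers went from 101 to 236 to 13.6 to 24, and CD8 markers from 5165 to 5822 to 2959 to 3743. CD4 T cell markers were at 52.1 to 91.6 CPM naive and 31.5 to 60.6 at 48 h. Summed NK markers were at 228 to 262 CPM naive and 139 to 304 at 48 h, and rose in experiment 3 from 253 to 304. In bulk samples fewer cells of a type and less RNA per cell cannot be told apart, and the part of these shifts in the members' rise was not tested.

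The large subunit shifted slightly more than the small subunit in every wt mouse. The mean log2 CPM of large minus that of small members was 0.17 ± 0.029 in naive wt libraries, 0.26 ± 0.012 at 24 h and 0.26 ± 0.047 at 48 h, with 0.14 to 0.19 naive and 0.22 to 0.32 at 48 h. The naive and stimulated ranges did not overlap. In KI cells it went from 0.19 ± 0.023 to 0.25 ± 0.012 at 48 h, and in KO-labelled cells from 0.17 and 0.18 to 0.20 in the 48 h library that stands apart and 0.28 in the other. Symbols do not all follow structure, since Mrps30 and Mrps18a belong to the large subunit and Mrps36 is a component of the oxoglutarate dehydrogenase complex. With these moved or left out the medians at 48 h in wt were 1.03 for large and 0.83 for small, and the difference within a library still went from 0.07 ± 0.0076 to 0.18 ± 0.05. The shift is small beside the spread of members within a subunit, where the quartiles of the large members were 0.53 and 1.40.

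In both subunits the median was higher among proteins with a bacterial counterpart. In the small subunit, grouped by structure, 15 of 16 with a counterpart rose with a median of 0.93, and 5 of 10 without one, median 0.47. In the large subunit 28 of 30 with a counterpart rose and 1 fell, median 1.11, and 17 of 21 without one rose, median 0.92. These lists were drawn up with earlier results of the data known, and the difference between them has no test.

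**Figure D2:**
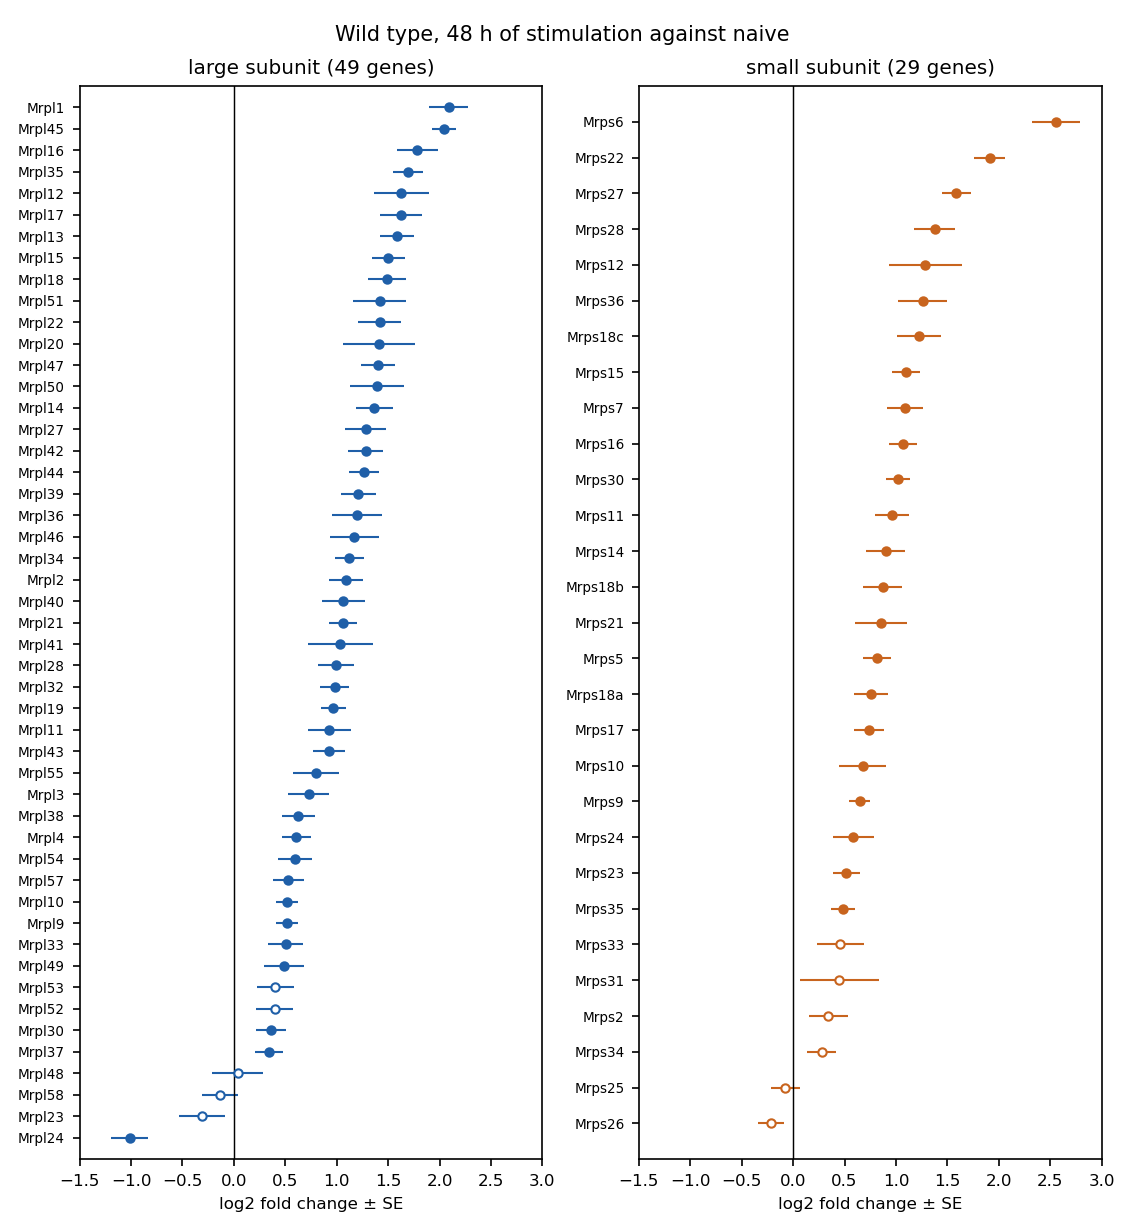
Log2 fold change at 48 h against naive in wt cells for each member of the large (left) and small subunit (right), ordered by value. Bars are ± 1 SE of the edgeR fit, with 3 libraries a group and a spread estimated over all 22 libraries. Filled points are called changed. Of these, 66 lie to the right of 0 as called higher and Mrpl24 alone is called lower.

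Mrps6, the counterpart of bacterial S6 on the small subunit, rose most (ENSMUSG00000039680, chromosome 16, 92058270 to 92112227, plus strand). It was at 10.5, 10.3 and 13.6 CPM in naive wt libraries of experiments 1, 3 and 5, at 62.4, 60.5 and 68.8 at 24 h, and at 64.2, 41.8 and 97 at 48 h. Every stimulated library was above every naive one, and the 48 h libraries were spread widely. The change at 48 h was 5.89-fold (log2 2.56, SE 0.232, edgeR adjusted p = 4e-08). Exons of Mrps6 lie over Slc5a3, an inositol transporter gene on the same strand, which itself rose by 1.91 on the log2 scale (adjusted p = 8.75e-08, edgeR), so reads of the pair may be shared.

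Mrps22 and Mrps27, small subunit proteins without a bacterial counterpart, were next. Mrps22 went from 11.9 ± 1.79 to 44.9 ± 7.31 CPM at 48 h (3.76-fold, adjusted p = 8.56e-09), and Mrps27 from 19.9 ± 0.33 to 59.7 ± 8.04 (3-fold, adjusted p = 3.24e-08; SD, n = 3, edgeR). In the large subunit Mrpl1, a protein of the stalk through which deacylated tRNA leaves, rose 4.25-fold, and Mrpl45, which anchors the ribosome to the inner membrane, rose 4.11-fold. Mrpl45 had the smallest p of all members, going from 29.6 ± 1.78 to 122 ± 14.3 CPM (adjusted p = 1.68e-10). Mrpl16, which lies by the peptidyl transferase centre, rose 3.45-fold (adjusted p = 6.21e-07).

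Other members with a known role rose by 1.68-fold to 3.09-fold. Mrpl12, the stalk protein that contacts elongation factors, rose 3.09-fold, from 42.2 ± 9.34 to 131 ± 39.6 CPM. Mrpl44, an RNase III-like protein, rose 2.4-fold and Mrpl36, one of the smallest proteins of the large subunit, 2.3-fold. Mrps12, the protein of the decoding centre whose bacterial counterpart is the site of streptomycin resistance, rose 2.44-fold (adjusted p = 0.00516), but its 48 h libraries held 29.4, 16.8 and 43 CPM against 11.1 to 13.7 naive. Without mouse 5 its call was lost (adjusted p = 0.0642). The 3 paralogs of bacterial S18 rose by different amounts, Mrps18c 2.33-fold, Mrps18b 1.83-fold and Mrps18a 1.68-fold. Mrps30 rose 2.02-fold and Mrps36 2.39-fold.

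A few members were not higher at 48 h. Mrpl24 (ENSMUSG00000019710, chromosome 3, 87919506 to 87923672, plus strand) fell, from 157, 148 and 169 CPM in the naive wt libraries to 136, 122 and 127 at 24 h and 68.9, 96.9 and 68.5 at 48 h. All 48 h libraries were below all 24 h libraries and these below all naive ones. The change at 48 h was log2 -1.02 (SE 0.176, edgeR adjusted p = 8.6e-05), and at 24 h log2 -0.30 (adjusted p = 0.165). Exons of Mrpl24 lie over Rrnad1, a gene on the opposite strand that went from 116 to 71.5 CPM (log2 -0.70, adjusted p = 0.000157), and without a stated strand setting their counts cannot be told apart with certainty.

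In all 3 genotypes, 9 members were not called higher at 48 h: Mrpl23, Mrpl24, Mrpl48, Mrpl53, Mrpl58, Mrps25, Mrps26, Mrps31 and Mrps34. The share of all genes not called higher in all 3 is not given here. Some of the 9 were called higher at 24 h in wt cells by edgeR. These were Mrps31 (log2 0.99, adjusted p = 0.0411), Mrpl48 (0.62, adjusted p = 0.0437) and Mrps34 (0.48, adjusted p = 0.0104). Mrps34 was also called higher in KI cells at 24 h (log2 0.42, edgeR adjusted p = 0.0284). Mrpl58 is a peptidyl-tRNA hydrolase that releases stalled chains and became part of the ribosome, and it stood at 40.7 ± 5.33 CPM naive and 37.1 ± 3.54 at 48 h in wt cells (adjusted p = 0.535). Mrps25, Mrps26 and Mrps34 are mitochondria-specific proteins of the small subunit. Mrps26 was at 40.4 ± 3.13 CPM naive and 34.7 ± 2.28 at 48 h (adjusted p = 0.146), Mrps25 at 86.6 ± 3.61 and 82.1 ± 15.2 (adjusted p = 0.658), and Mrps34 at 43.9 ± 4.35 and 53.2 ± 6.87 (adjusted p = 0.113). Mrpl23, a protein at the exit of the peptide tunnel with copies elsewhere, stood at 3.24 ± 0.657 and 2.61 ± 0.506 CPM (adjusted p = 0.241).

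Between 24 h and 48 h few members moved in wt cells. Calls fell on 3 members, 1 higher and 2 lower, where 7.49% of all genes were called. Mrpl1 rose from 38.3 ± 1.57 to 58.1 ± 17.5 CPM (1.52-fold, adjusted p = 0.0485), Mrpl24 fell (log2 -0.72, adjusted p = 0.0175), and Mrps2, a bacterial-type protein of the small subunit, fell from 51.3, 60.5 and 37.6 to 34, 36.5 and 22.5 CPM (log2 -0.68, adjusted p = 0.0337). Each of these 3 calls was lost without mouse 1 or without mouse 5, that of Mrps2 also without mouse 3, and that of Mrpl1 also without the low-count filter (0.071) and with upper-quartile scaling (0.0537), all by edgeR. Mrpl22, a protein of the peptide tunnel wall, was the next highest at 18.1 ± 0.211 and 26 ± 6.41 CPM. The mice did not move together: the median of the 78 members from 24 h to 48 h was 0.04 in experiment 1, -0.32 in experiment 3 and 0.34 in experiment 5.

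Most members rose in KI cells as well. At 24 h 64 members rose and 0 fell, where 22.9% of all genes were called higher and 15.8% lower, with a median of 0.79. At 48 h 62 rose and 0 fell, where 26.6% of genes were called higher and 22.1% lower, with medians of 0.83 in the large and 0.77 in the small subunit. Between 24 h and 48 h 0 members were called by edgeR, where 2.68% of all genes were. At an unadjusted p under 0.05 there were 4 members, and the share of all genes at that level is not given here. Without mouse 5, 41 members were called at 48 h against naive, and the share of all genes called in that fit is not given here. The summed level of all members was 2288 ± 25.7 CPM in naive KI cells, 3793 ± 229 after 24 h and 3773 ± 505 after 48 h (SD, n = 3).

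In the libraries labelled KO, 51 members rose and 2 fell at 48 h against naive, where 23.6% of all genes were called higher and 20.4% lower. The median was 0.76, with 0.83 in the large and 0.74 in the small subunit. The members that fell were Mrpl24 (log2 -0.91, adjusted p = 0.0022) and Mrps26 (log2 -0.51, adjusted p = 0.0112). Without the 48 h library of experiment 1 that stands apart, 58 were called, where 45.7% of all genes were, with medians of 1.02 in the large and 0.88 in the small subunit, and the call of Mrps26 was lost (adjusted p = 0.0644). Without mouse 5, which leaves that library as the lone 48 h sample, assumed to vary like the other groups, 34 were called, where 36.3% of all genes were, and the calls of Mrpl24 (adjusted p = 0.16) and Mrps26 (adjusted p = 0.076) were both lost. With the 4 KO-labelled libraries fitted alone 4 were called. The share of all genes called in that fit is not given here, so the drop is not a result about the members.

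Across members the response had the same shape in wt and KI cells. The log2 fold changes at 48 h correlated with r = 0.882 over the 78 members, in comparisons that share no library. Mrps6 led in KI cells as well (4.63-fold, adjusted p = 3.18e-07), followed by Mrpl45 at 4.1-fold, Mrpl16 at 3.06-fold and Mrps22 at 2.96-fold. Mrpl1, the leader of the large subunit in wt cells, rose 2.13-fold in KI cells (adjusted p = 7.77e-05). Mrps2, which was not called in wt cells at 48 h (log2 0.34, adjusted p = 0.134), rose 1.87-fold in KI cells (adjusted p = 0.000703). Mrpl24 was at log2 -0.37 in KI cells (adjusted p = 0.0911).

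**Figure D3:**
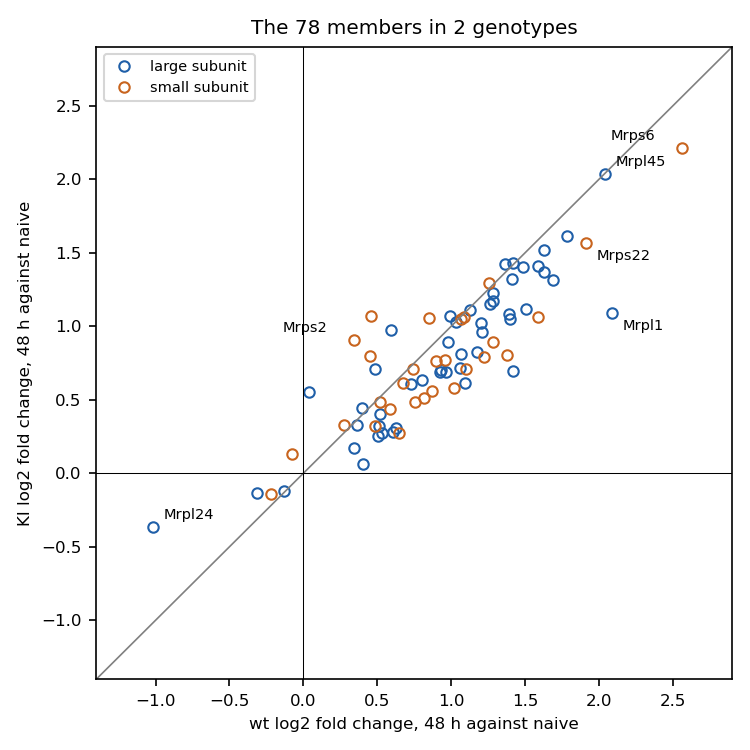
Log2 fold change at 48 h against naive in wt (horizontal) and KI cells (vertical) for each of the 78 members, with the line of equal change in grey; r is 0.882. Mrpl1 lies below the line (2.09 in wt and 1.09 in KI), and Mrps2 and Mrpl24 above it.

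In naive cells no member was called different between KI and wt. Of the 78 members 0 were called by edgeR or DESeq2, where edgeR called 0.113% of all genes, and 1 was at an unadjusted p under 0.05. That one was Mrps33, a small subunit protein with an annotated copy, at 4.57 ± 0.382 CPM in KI and 6.6 ± 2.36 in wt cells (adjusted p = 1). Mrps36 (log2 -0.34, SE 0.241) and Mrpl19 (log2 0.14, SE 0.123) had the next smallest p. The median difference was 0.02, and per experiment it was 0.00, 0.15 and -0.10 in experiments 1, 3 and 5.

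At 24 h the members tended to be lower in KI than in wt cells, by amounts too small for any to be called. None of the 78 was called by edgeR or DESeq2, where edgeR called 0.00472% of all genes, and 1 was at an unadjusted p under 0.05. The estimate was below 0 for 72 members, with a median of -0.16 against 0.01 over all genes. In 16 members all KI libraries lay below all wt libraries, where 9.41% of all genes did so, and in 2 they lay above, where 10.8% did. Mrps22 was at 31.9 ± 1.06 CPM in KI and 40.2 ± 2.59 in wt cells (log2 -0.33, adjusted p = 0.528), Mrps27 at 46.7 ± 2.23 and 56.5 ± 6.2 (log2 -0.27, adjusted p = 0.58), and Mrpl24 at 160 ± 20.4 and 128 ± 7.4 (log2 0.32, adjusted p = 0.623). The tendency was not shared by the experiments: the median of KI minus wt was -0.23 in experiment 1, -0.26 in experiment 3 and 0.10 in experiment 5. The last had female mice and the others male mice.

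At 48 h 1 member was called lower in KI than in wt cells and none higher, where 4.17% of all genes were called. Members at an unadjusted p under 0.05 numbered 18. The share of all genes at that unadjusted level is not given here, so this count does not single out the members. The median over members was -0.16, against 0.00 over all genes, with -0.17 in the large and -0.16 in the small subunit, and 59 estimates were below 0. In 4 members all KI libraries were above all wt libraries, where 10.8% of all genes were, and in 4 they were below, where 9.78% were. Within experiments the median was -0.31, -0.06 and -0.13. Summed B cell markers were at 103 to 204 CPM in KI and 44.6 to 132 in wt libraries at 48 h, and their part in these differences was not tested.

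The called member was Mrpl1 (ENSMUSG00000029486, chromosome 5, 96209493 to 96266727, plus strand; GRCm38). It stood at 30.2, 28.2 and 34.6 CPM in the KI libraries at 48 h against 55.5, 42 and 76.8 in wt, with no overlap. KI was lower in each experiment, by log2 -0.88, -0.57 and -1.15, and the fitted difference was log2 -0.91 (SE 0.181, edgeR adjusted p = 0.00787). The call was lost without KI mouse 1 (adjusted p = 0.101), KI mouse 3 (0.0798) or wt mouse 1 (0.0694), and with the 6 libraries fitted alone (0.107). Naive KI and wt cells held Mrpl1 at 14.6 ± 1.45 and 13.7 ± 2.61 CPM, and at 24 h at 30.6 ± 1.6 and 38.3 ± 1.57, where each KI library was again below each wt library (log2 -0.32, adjusted p = 0.624). In KI cells its level at 48 h equalled that at 24 h within the spread, and in wt cells it was higher at 48 h. In the 48 h libraries labelled KO Mrpl1 was at 62.9 and 66.8 CPM, within the wt range (adjusted p = 0.859).

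Mrpl24 and Mrps2 differed the other way and narrowly missed the threshold. Mrpl24 was at 127, 108 and 126 CPM in KI and 68.9, 96.9 and 68.5 in wt libraries (log2 0.62, adjusted p = 0.0504), and Mrps2 at 44.2, 45.8 and 55.7 against 34, 36.5 and 22.5 (log2 0.65, adjusted p = 0.0599). In both, every KI library was above every wt library. DESeq2 called both (adjusted p = 0.0159 and 0.0322), and with DESeq2 7 members were called in all. Mrps9, a bacterial-type protein of the small subunit, was at 59.8 ± 4.19 CPM in KI and 75.8 ± 2.4 in wt cells (log2 -0.34, adjusted p = 0.0536). With the replicate block, here the experiment, 2 members were called, Mrpl1 (adjusted p = 0.00256) and Mrpl22 (log2 -0.63, adjusted p = 0.029). Without wt mouse 3, 7 were called. For DESeq2, the replicate block and the fit without wt mouse 3, the share of all genes called is not given here. These counts therefore do not single out the members.

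**Figure D4:**
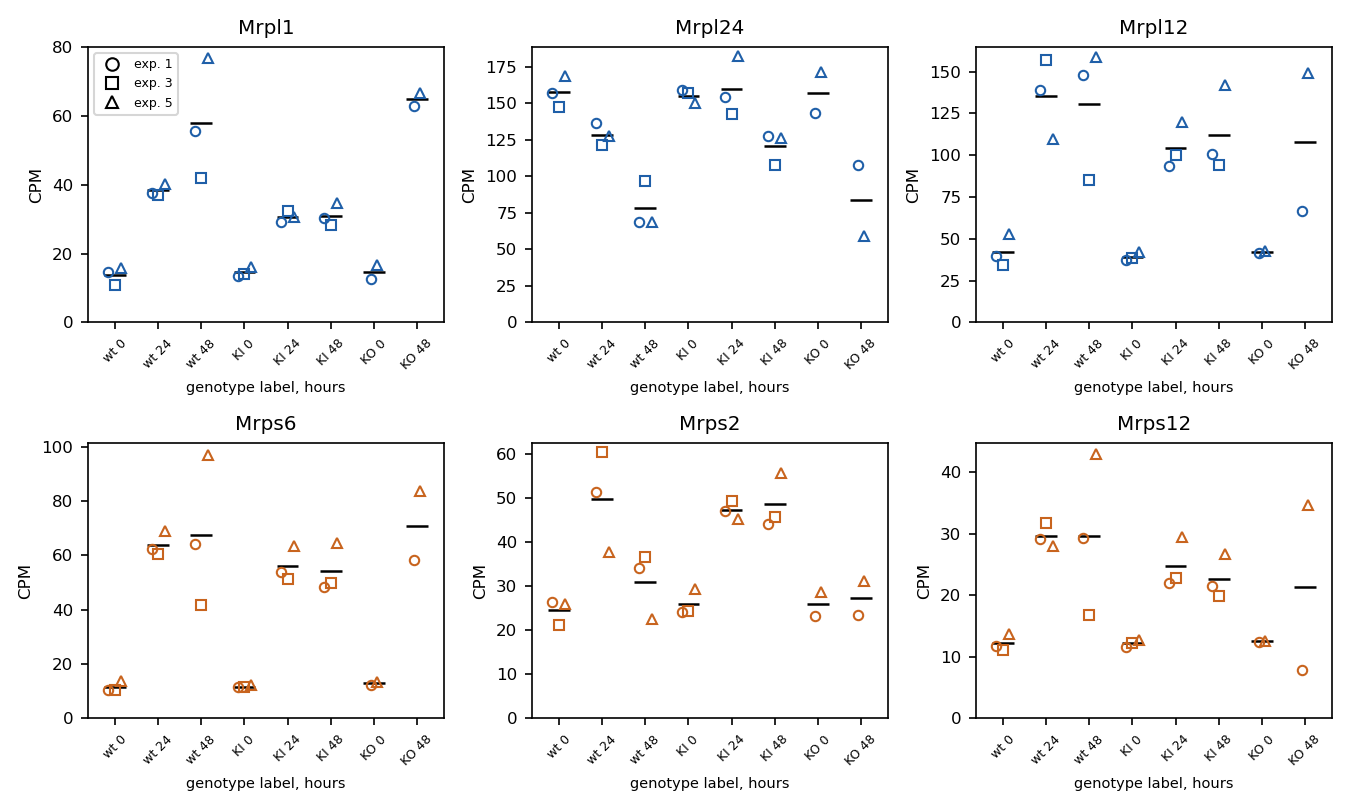
CPM of 6 members in every library by genotype label and hours of stimulation; symbols give the experiment and bars the group mean. The KI libraries at 48 h hold less Mrpl1 (28.2 to 34.6) than the wt libraries (42 to 76.8) and more Mrpl24 and Mrps2. Among the 48 h libraries, the one labelled KO of experiment 1 is lowest for Mrpl12 and Mrps12.

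Whether the response itself differed between KI and wt was asked with interaction terms. At 24 h 0 members were called by edgeR or DESeq2 and 0 had an unadjusted p under 0.05, where 0.0% of all genes were called. The 3 smallest p were those of Mrpl19, Mrps27 and Mrps5, with differences of -0.33, -0.37 and -0.31 on the log2 scale (each adjusted p = 1). At 48 h 0 members were called, where 0.387% of all genes were, and 7 had an unadjusted p under 0.05. How many of all genes reached that unadjusted level is not given here, so the 7 do not single out the members. Mrpl1 was nearest, with a response lower by log2 -0.998 in KI cells (SE 0.255, adjusted p = 0.111). It was called with the replicate block, here the mouse (log2 -0.98, adjusted p = 0.0327), and by DESeq2 (adjusted p = 0.0171). Mrps9 (log2 -0.37, adjusted p = 0.347) and Mrps27 (log2 -0.52, adjusted p = 0.35) followed.

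**Figure D5:**
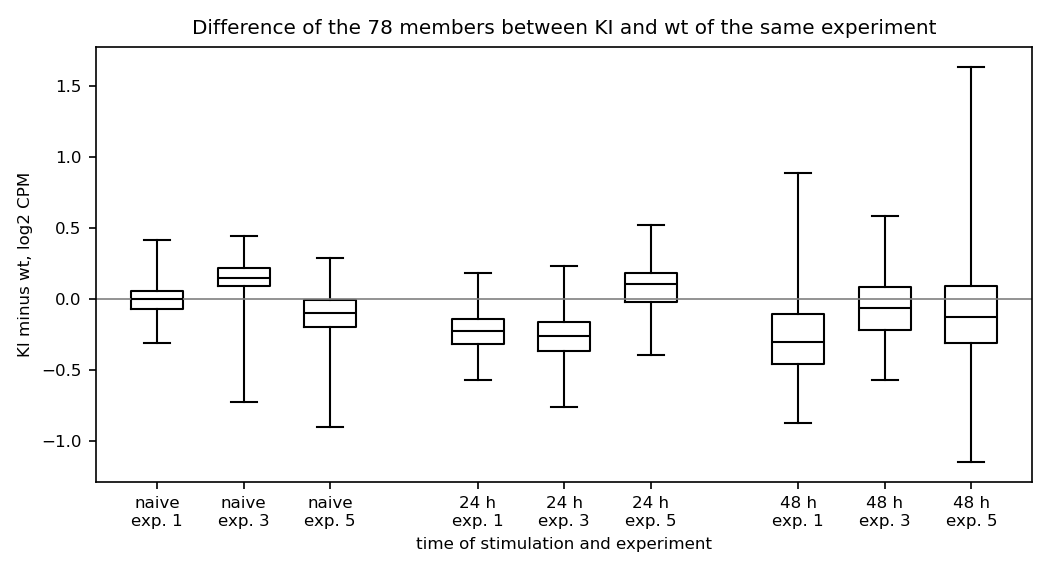
Difference in log2 CPM between the KI and the wt library of the same experiment and time, over the 78 members; boxes give the quartiles with the median as a line, and whiskers reach the lowest and highest member. At 24 h the medians are -0.23 and -0.26 in experiments 1 and 3 and 0.10 in experiment 5, and at 48 h all 3 are below 0.

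No member was called different between libraries labelled KO and wt with all mice in the fit. Naive, 0 members were called by edgeR or DESeq2 and 0 had an unadjusted p under 0.05, where edgeR called 0.0236% of all genes. The 3 smallest p belonged to Mrpl34, Mrpl53 and Mrpl43, with differences of 0.13, 0.16 and 0.13 on the log2 scale. Without KO mouse 1, whose naive library stands apart, 0 were called, and the median moved from 0.02 to 0.11. At 48 h 0 were called by edgeR or DESeq2, where edgeR called 0.0283% of all genes, and 1 had an unadjusted p under 0.05, Mrpl28, at 26.9 CPM in the library that stands apart and 48 in the other against 49.9 ± 4.07 in wt cells (SD, n = 3, adjusted p = 0.716 by edgeR). Mrps26 (28.4 ± 2.51 CPM against 34.7 ± 2.28, adjusted p = 0.723) and Mrpl38 (36.4 ± 12.7 against 46.9 ± 5.99, adjusted p = 0.723) had the next smallest p. For the interaction with activation 0 members were called by edgeR or DESeq2 and 0 had an unadjusted p under 0.05, where 0.0% of all genes were called.

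The 2 libraries labelled KO at 48 h were unlike each other in these genes. The median of KO-labelled minus wt was -0.46 in experiment 1 and -0.15 in experiment 5. In experiment 1 this sets a female KO-labelled mouse against a male wt mouse, and in experiment 5 both were female. Mrps12 was at 7.91 CPM in the library of experiment 1 and 34.7 in that of experiment 5, Mrpl36 at 26.4 and 62, and Mrpl12 at 66.9 and 149. When mouse 5 was left out, the library that stands apart was the lone KO-labelled sample at 48 h, and the fit assumed that it varies like the other groups. Then 27 of 78 members were called against wt by edgeR, where 22.8% of all genes were, among them Mrps12 (log2 -1.91, adjusted p = 0.00166) and Mrpl20 (log2 -1.78, adjusted p = 0.00229). These calls describe 1 library. Without that library 0 were called. Mrpl30, Mrpl48 and Mrps31 were higher among those 27 and the other 24 lower.

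Other genes of mitochondrial translation are given for wt cells at 48 h, where, as above, 29.5% of all genes were called higher and 26.8% lower. Differences between lists were not tested. The 5 ribosomal proteins without the Mrp prefix, among them the GTP-binding protein Dap3 and Ptcd3 of the small subunit, all rose (median 0.77), from Dap3 at log2 0.40 (adjusted p = 0.00781) to Chchd1 at 1.14 (adjusted p = 0.000391). Of 11 translation factors 8 rose and 0 fell, from Mtif3, an initiation factor, at log2 0.48 to Gfm1, the elongation factor that moves the ribosome, at 1.55 (adjusted p = 1.35e-06). Of 23 assembly and rRNA-modifying factors 11 rose and 1 fell, with 6 higher without mouse 1, 7 without mouse 5, and 7 higher and 4 lower with upper-quartile scaling. Ddx28, a helicase of large subunit assembly, rose most (log2 1.65, adjusted p = 3.67e-09), and Mettl17 fell (log2 -0.94, adjusted p = 3.22e-05).

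Mitochondrial tRNA synthetases were mixed, with 8 of 17 higher and 1 lower, and 5 higher without mouse 3 or with upper-quartile scaling. Ears2, the synthetase for glutamate, fell by 1.40 on the log2 scale (adjusted p = 3.31e-07). Of 14 genes of mitochondrial DNA expression and mRNA handling 9 rose and 2 fell. Supv3l1, an RNA helicase of mitochondrial RNA decay, was highest at log2 1.07, and Polg2, an accessory subunit of the mitochondrial DNA polymerase, lowest at -0.57 (adjusted p = 0.028). Of 10 transcription regulators 3 rose and 3 fell. Myc, a driver of growth genes in activated T cells, rose (log2 1.03, adjusted p = 0.000146), as did Gabpb1 at 0.76 and Gabpa at 0.28, whose products form GABP, while Nrf1 (log2 0.15, adjusted p = 0.317) and Yy1 (0.10, adjusted p = 0.41) were not called. The lowest that fell, Ppargc1a, was under 1 CPM throughout.

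Most mRNAs that these ribosomes translate were not called higher. Of 12 mitochondrially encoded mRNAs tested in wt cells at 48 h, 4 were called lower and 1 higher, with a median of -0.48. The higher one, mt-Nd3, had 0 counts in naive wt libraries and 0.0623 ± 0.079 CPM at 48 h. Mouse 5 carried most of the fall: summed CPM of these mRNAs went from 25660 to 22070 in experiment 1, from 22850 to 21860 in experiment 3 and from 35140 to 17240 in experiment 5, whose naive library was the highest of the wt libraries. Without mouse 5, 0 were called lower (median -0.17), and without mouse 3 1 was. Those lower with all mice were mt-Nd4, mt-Nd5, mt-Nd6 and mt-Cytb, the last from 5099 ± 1543 to 2985 ± 574 CPM (log2 -0.77, adjusted p = 0.0281). In KI cells 0 of 12 were called by edgeR, with a median of 0.03 and 0 at an unadjusted p under 0.05, and between KI and wt at 48 h 0 were called and 0 were at an unadjusted p under 0.05. Several of these genes (mt-Nd3, mt-Nd4l, mt-Co2, mt-Co3, mt-Atp6) were under 1 CPM in every wt mean, so their counts do not give their abundance. Of the nuclear respiratory chain subunits 65 of 79 rose and 1 fell (median 0.84), while cytosolic ribosomal proteins had 9 higher and 15 lower of 79 (median -0.02), or 5 and 25 with upper-quartile scaling.

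In KI against wt cells at 48 h the same accessory lists, of the sizes given above, held a few calls, all lower in KI. Of all genes 4.17% were called in this comparison, and a difference of the lists from that share was not tested. Guf1, an elongation-type GTPase of mitochondria, was the one translation factor (log2 -0.61, adjusted p = 0.0158). Mtg1 (-0.69, adjusted p = 0.0116) and Gtpbp10 (-0.76, adjusted p = 0.0317), both GTPases of large subunit assembly, and Grsf1 (-0.36, adjusted p = 0.0252), an RNA-binding protein of mitochondrial RNA granules, were the 3 assembly factors. Pnpt1, a nuclease of mitochondrial RNA decay, was the one gene of mRNA handling (-0.76, adjusted p = 0.0161). All 5 of these calls were lost without KI mouse 1, KI mouse 3 or wt mouse 1 and with the compared groups fitted alone. No tRNA synthetase, transcription regulator or non-Mrp ribosomal protein was called, and by edgeR 1, 3 and 1 of these lists' genes had an unadjusted p under 0.05.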

How the data were processed

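RNA was sequenced in 22 libraries (TruSeq stranded mRNA, paired ends, per the labels' protocols). Per the submitters' processing notes the tools were bcl2fastq 2.20.0, TopHat2 2.1.0, Bowtie2 2.2.5, SAMtools 0.1.19, featureCounts and DESeq2 1.6.3, with GRCm38. The deposited raw counts are whole numbers per gene. The deposited log2 table equalled log2 of the count over 1 factor per library plus 1 (largest relative deviation 3.6e-14), and the deposited FPKM those normalized counts over 1 length per gene (1.6e-13). FPKM served only to compare levels between genes.

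Counts were filtered with filterByExpr, scaled with TMM and fitted with 8 group means in edgeR 4.0.16 (robust quasi-likelihood F test, 14 residual degrees of freedom, R 4.3.3), with Benjamini-Hochberg adjustment over 21183 genes and a threshold of 0.05; the script was tested on simulated data. Fold changes are edgeR's and CPM means are ± SD over mice. Alternatives were DESeq2 1.42.0, upper-quartile scaling, no filter, the compared groups alone, a replicate block and leaving out each mouse; leaving out 1 KO-labelled library was added after seeing the data.

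The labels name the shared mouse or experiment, so the numbers pair the libraries. Deviations from group means correlated with a median r of 0.27 within a mouse (19 of 20 pairs over 0.1), 0.319 within an experiment and time (10 of 17), and -0.0525 across experiments. Members and lists were chosen with earlier results of these data known. Named in full are the 3 highest and lowest members of each subunit in wt at 48 h, the extremes of naive FPKM, those with the smallest p between genotypes and a few of known role. Transcripts were matched with BLAST, and positions and neighbours are those of GENCODE on GRCm38. One gene of the accessory lists is not reported here.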

Additional observations from a re-analysis of the deposited data

How the results depend on the processing

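In wt and KI cells counts of members called after activation stayed within 1.5 times, except in KI at 48 h without mouse 5 (41). Against 69 and 67 called at 24 h and 48 h in wt, the alternatives that kept every mouse gave 62 to 71 and 61 to 70, and leaving out a mouse 57 to 71 and 58 to 66. In KI cells, against 64 and 62, they gave 53 to 71 and 53 to 71, and without a mouse 49 to 52 and 41 to 55. For the libraries labelled KO, against 53, the compared groups alone gave 4, and leaving out a mouse 34 to 54. Upper-quartile scaling moved the median of all genes at 48 h in wt from -0.04 to -0.26, and with it the members: medians became 0.83 (large) and 0.64 (small) for wt at 24 h, 0.84 and 0.64 for wt at 48 h, 0.69 and 0.59 for KI at 24 h, 0.64 and 0.58 for KI at 48 h, and 0.56 (small) for KO-labelled cells, each still above 0. DESeq2 gave 0.77 and 0.67 for KI at 24 h.

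From 24 h to 48 h wt cells had 3 calls, against 5 with DESeq2, 0 with the groups alone and 0 to 3 without a mouse; KI cells had 0, against 1 with DESeq2 (Mrpl45), with the groups alone (Mrpl4) and with upper-quartile scaling (Mrpl45). KI against wt at 48 h had 1, against 7 with DESeq2, 0 with the groups alone, 2 without the filter, 2 with the replicate block, 3 with upper-quartile scaling and 0 to 7 without a mouse. The KI interaction at 48 h had 0, against 1 (Mrpl1) with DESeq2 and 1 with the replicate block. Without a mouse, KO-labelled against wt at 48 h gave 0 to 27 and its interaction 0 to 4. The replicate block changed no other count by over 1.5 times. Shares of all genes called under the alternatives are not given in this section, so its counts do not single out the members.

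Leaving out a mouse gave these subunit medians (log2): 0.877 to 1.176 for large members in wt at 24 h; -0.151 to 0.232 (large) and -0.174 to 0.156 (small) for wt 48 h against 24 h; 0.788 to 0.909 (large) for KI at 24 h; 0.503 to 0.875 (small) for KO-labelled cells at 48 h; -0.386 to 0.006 (small) for KO-labelled against wt at 48 h; and -0.301 to -0.032 (large) and -0.25 to -0.021 (small) for the KI interaction at 24 h. The low end for KO-labelled cells was without mouse 5. Mrps25 in wt at 48 h, at -0.077, ranged from -0.243 to 0.083 without a mouse, uncalled with all mice. The causes of these shifts were not tested. Genes with few counts or with near-identical copies, such as Mrps36 and Mrpl23, are least certain.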
